A study of Sus scrofa with 95 samples.

Results

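The comparison described here sets the transcriptional response of the heart to cardiopulmonary bypass with deep hypothermic circulatory arrest (CPB) against the response of the kidney in the same animals. It uses the 30 libraries of the left ventricle and of the kidney cortex from 7 infant pigs that underwent CPB without drug and from 8 pigs that served as anesthesia controls, out of 95 libraries in the whole series. The animals weighed 5 to 10 kg, the circulation of the CPB animals was arrested for 75 min, and the sexes were 4 males and 3 females among CPB animals and 4 males and 4 females among controls. A further 8 heart and kidney libraries, from animals that had CPB with linrodostat, an inhibitor of the tryptophan-degrading enzyme IDO1, entered the statistical model only to estimate the spread, which gave 38 libraries in the fit. Every animal gave 1 heart and 1 kidney library, so that the quantity of interest was the CPB-over-control change in heart minus the CPB-over-control change in kidney, called the response difference below. The controls had anesthesia and no bypass, so cooling, arrest, bypass and rewarming enter the CPB groups together.

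During bypass a pump and oxygenator replace heart and lungs, the body is cooled, and for repairs in small infants the circulation may be stopped and later restarted. Ventricular muscle lives mainly on fatty acids and contracts through sarcomeres anchored at Z-discs, whereas kidney cortex consists mostly of proximal tubule epithelium that reabsorbs filtered solutes. When oxygen delivery is interrupted and restored, tubule cells are known to switch on injury genes such as keratins and osteopontin, antioxidant genes controlled by the transcription factor NRF2, and cell cycle inhibitors. Cardiomyocytes and vascular smooth muscle respond to load and to stretch through actin-dependent transcription by serum response factor (SRF).

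Library totals were 20.4 to 25.2 M estimated counts in CPB hearts and 21.3 to 27.2 M in control hearts, and 25.7 to 37.1 M in CPB kidneys and 34.2 to 42.7 M in control kidneys. Transcripts of mitochondrial DNA took a median of 28.8% of counts in CPB hearts and 26% in control hearts, and 16.9% in CPB kidneys and 12.8% in control kidneys, and their part in the results was not tested. The organ labels held: MYH7, the slow myosin heavy chain of ventricle, had a median of 47300 CPM (counts per M counts of the library total, scaled within each organ) in CPB hearts and 59500 CPM in control hearts, and UMOD, the thick ascending limb marker uromodulin, had 5320 CPM in CPB kidneys and 5890 CPM in control kidneys. The labels give batch 2 for each heart library and batch 1 for each kidney library, and hearts were taken just after euthanasia but kidneys just before it. Organ, batch label and time of harvest therefore cannot be told apart, and no value within 1 batch exists for the response difference. Some libraries stood apart before any comparison: the kidneys of CPB animals 6 and 9 held cardiomyocyte transcripts, with MYH7 at 51.6 and 53.4 CPM against 0.203 to 7.39 CPM in the other CPB kidneys and 0.0245 to 11.8 CPM in control kidneys. The kidneys of control animals 1, 26 and 10 held fat cell transcripts, with the adipokine gene ADIPOQ at 57.5, 117 and 13 CPM, against 0 to 0.539 CPM in the other control kidneys and 0 in all 7 CPB kidneys. The kidneys of control animals 14 and 15 stood apart in tubule transcripts. SLC12A1, the salt transporter of the thick ascending limb, was at 2040 and 1950 CPM in them, against 428 to 844 CPM in the other control kidneys and 261 to 654 CPM in CPB kidneys. SLC5A2, the glucose transporter of the early proximal tubule, was at 104 and 29.9 CPM in them, against 187 to 235 CPM in the other control kidneys and 111 to 356 CPM in CPB kidneys. The kidney of control animal 15 had the highest sums of macrophage markers, 2530 CPM, and of T and NK cell markers, 865 CPM. Since these are bulk tissues, fewer cells of a type and less RNA per cell cannot be told apart in any value below.

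Of 14569 genes with enough counts in both organs, 1210 (8.31%) had a response difference at an adjusted p under 0.05 by edgeR's quasi-likelihood test with animal as a block. The heart response was the more positive one in 506 genes (3.47%) and the more negative one in 704 genes (4.83%), and 495 of the 1210 genes differed by 2-fold or more. Within each organ, 1775 of 14890 genes tested changed in heart (11.9%), 951 of them rising (6.39%) and 824 falling (5.53%). In kidney 3735 of 17653 genes changed (21.2%), 1992 of them rising (11.3%) and 1743 falling (9.87%). Of the 647 genes that changed in both organs, 574 moved in the same direction and 73 in opposite directions. Without CPB animal 2 the count of response differences was 750, without control animals 1 and 26 together it was 799, and without control animals 14 and 15 together it was 728. The pairs of animals were chosen after seeing the data. Without control animals 14 and 15 the heart count was 987.

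The genes with a response difference were sorted by what each organ did. Opposite responses, with a change in each organ and differing signs, were found for 73 genes (0.501% of those tested), of which 42 rose in heart and fell in kidney and 31 fell in heart and rose in kidney. A response restricted to heart, where the kidney fold change did not pass and lay within 0.5 log2 units of 0, was found for 368 genes (2.53%), of which 163 rose and 205 fell in heart. The mirror class, restricted to kidney, held 421 genes (2.89%), of which 277 rose and 144 fell in kidney. In 28 genes (0.192%) both organs changed in the same direction to a different extent. The remaining 320 genes fell in none of these classes, 34 of them passing in heart alone, 66 in kidney alone and 220 in neither organ. The limit of 0.5 is a choice: just inside it, the kidney fold changes of the heart-restricted genes SLC43A3 and ANGPTL4 were 0.4992 and 0.4821, and just outside it those of PROB1 and DKK3 were 0.5042 and 0.5125. For the kidney-restricted class the heart fold changes of ERICH1 and CASP6, just inside, were -0.4999 and -0.498, and those of AASS and SEMA5A, just outside, were 0.5049 and 0.5114. Leaving out 1 animal moved these counts: without CPB animal 2 there were 44 opposite, 234 heart-restricted, 251 kidney-restricted and 7 same-direction genes. Without control animal 14 or CPB animal 25 there were 47 and 46 opposite genes, and without CPB animal 25 there were 269 kidney-restricted genes. The same-direction count moved by over 1.5 times in 11 of 15 such fits.

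**Figure D1:**
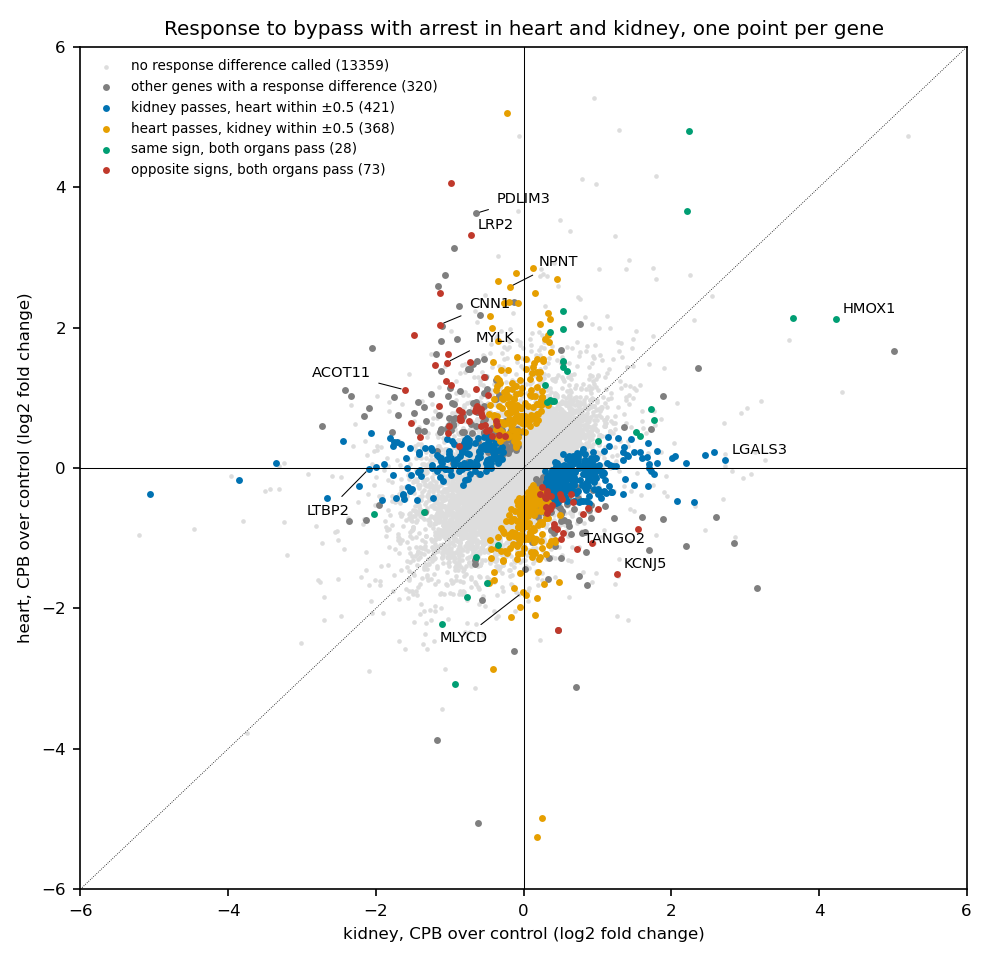
Log2 fold change of CPB over control in heart (vertical axis) against that in kidney (horizontal axis), 1 point for each of 14569 genes tested in both organs, coloured by response class. Genes restricted to 1 organ lie along an axis by the rule of their class, and the 73 opposite responders lie in the upper left (42 genes) and lower right (31 genes) quadrants. The dotted line marks equal responses, and 6 genes lie outside the axes.

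CNN1, MYLK and FBN2, which serve contraction and the matrix, were among the 42 genes that rose in heart and fell in kidney. Levels are given below as the lowest, the median and the highest library of a group, and the value after ± is the SE of a log2 fold change or of a response difference. CNN1, the actin-binding protein calponin 1 of smooth muscle (ENSSSCG00000013614, chromosome 2, 70183370 to 70190756 on Sscrofa11.1, as all positions below, from RefSeq), was found at 42.9, 112 and 206 CPM in CPB hearts, against 11.5, 31.5 and 39.4 CPM in control hearts. In kidney its levels were 2.34, 3.96 and 7.07 CPM in CPB kidneys, against 4.92, 7.21 and 14.3 CPM in control kidneys. The heart groups did not overlap, as in 2.36% of all genes tested, whereas the kidney groups overlapped. Every CPB animal had a larger heart-minus-kidney difference than every control. A gap of this kind, in either direction, was found in 1.95% of all genes tested. CNN1 was named for the size of its response difference, so the gap is a description. The log2 fold change was 2.04 ± 0.29 (SE, adjusted p = 0.000267) in heart and -1.13 ± 0.30 (SE, adjusted p = 0.0123) in kidney, and the response difference was 3.11 ± 0.46 (SE, adjusted p = 0.000352). MYLK, the kinase that phosphorylates myosin light chain and so drives smooth muscle contraction (ENSSSCG00000011867, chromosome 13, 136509878 to 136809674), had 23.1, 71.3 and 92.2 CPM in CPB hearts, against 15.6, 21.1 and 34.5 CPM in control hearts. Its kidney levels were 47.9, 71.2 and 132 CPM in CPB kidneys, against 89.9, 139 and 323 CPM in control kidneys. CPB hearts were mostly higher and CPB kidneys mostly lower than controls, with overlap in both organs, and the response difference was 2.41 ± 0.39 (SE, adjusted p = 0.000664). FBN2, the microfibril protein fibrillin 2, changed by 1.63 ± 0.27 in heart and -1.02 ± 0.26 in kidney on the log2 scale, a response difference of 2.64 ± 0.29 (SE, adjusted p = 1.87e-05), and its heart groups did not overlap. The response difference is estimated from heart-minus-kidney differences within animals, so it need not equal the heart value minus the kidney value.

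The smooth muscle and pericyte marker list holds CNN1 and MYLK but not FBN2. It also holds DES, the intermediate filament gene desmin, which cardiomyocytes express too. The 13 markers summed to 4680, 7500 and 9360 CPM in CPB hearts, against 4340, 4950 and 6210 CPM in control hearts, and to 484, 966 and 1320 CPM in CPB kidneys, against 961, 1380 and 2120 CPM in control kidneys. In heart DES made up 89.4% of the sum of means in CPB hearts and 85.4% in control hearts. Without DES the sums were 699, 778 and 989 CPM in CPB hearts, against 649, 740 and 877 CPM in control hearts, and 445, 897 and 1180 CPM in CPB kidneys, against 888, 1300 and 2060 CPM in control kidneys. None of the 13 was at 0 in all libraries of a group, and 3 of them passed the response difference, all 3 with heart above kidney, as did 3.47% of all genes: CNN1, MYLK and TAGLN. The 13 markers had a median log2 fold change of -0.16 in heart and -0.73 in kidney, against -0.02 and -0.01 over all genes tested, so that the sum and the median differed in sign in heart. In heart 3 of the 13 rose and 1 fell, against 6.39% and 5.53% of all genes tested in heart. In kidney 0 rose and 7 fell, against 11.3% and 9.87% of all genes tested in kidney. TAGLN, the smooth muscle actin-binding protein transgelin, had the smallest response difference of these 3 at 0.98 ± 0.30 (SE, adjusted p = 0.0471), with an adjusted p of 0.0706 without the animal block, and its call was lost in 12 of the 15 fits that leave out 1 animal and without control animals 14 and 15. The part that the amount of vascular tissue in a sample has in these differences was not tested.

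ACOT11 and LPL, which both handle fatty acids, also rose in heart and fell in kidney. ACOT11, a thioesterase that releases fatty acids from acyl-CoA (ENSSSCG00000037559, chromosome 6, 157749917 to 157832280), had 63.9, 149 and 193 CPM in CPB hearts, against 36.6, 59.6 and 99.1 CPM in control hearts. Kidney levels were 12.7, 14.8 and 19.2 CPM in CPB kidneys, against 28.7, 50.4 and 61.2 CPM in control kidneys. The kidney groups were fully apart, as in 4.13% of all genes tested, and the heart groups overlapped. ACOT11 was named for the size of its response difference, so the gap is a description. Its log2 fold change was 1.11 ± 0.24 (SE, adjusted p = 0.0055) in heart and -1.60 ± 0.16 (SE, adjusted p = 3.58e-06) in kidney, with a response difference of 2.66 ± 0.25 (SE, adjusted p = 2.88e-06). LPL, the lipoprotein lipase that frees fatty acids from circulating triglyceride (ENSSSCG00000040631, chromosome 14, 4104761 to 4134964), had 445, 982 and 1159 CPM in CPB hearts, against 476, 616 and 827 CPM in control hearts. In kidney it had 5.92, 8.85 and 20.5 CPM in CPB kidneys, against 19, 25.2 and 54.5 CPM in control kidneys. CPB animal 19 was the lowest CPB heart, and both organs showed overlap between groups. The log2 fold change of LPL was 0.64 ± 0.19 (SE, adjusted p = 0.0327) in heart and -1.53 ± 0.30 (SE, adjusted p = 0.002) in kidney, and the response difference was 2.17 ± 0.30 (SE, adjusted p = 0.000186). LPL is also a fat cell marker, and the ADIPOQ values above show where fat cell transcripts were present in kidney. PPARA, the nuclear receptor that switches on fatty acid oxidation, passed the response difference at 1.54 ± 0.31 (SE, adjusted p = 0.00421) and changed in kidney, at -1.11 ± 0.31 (SE, adjusted p = 0.0168), while its heart value of 0.55 ± 0.29 did not pass.

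The orphan nuclear receptor ESRRB, a relative of the estrogen receptor that binds DNA without estrogen (ENSSSCG00000002388, chromosome 7, 99511135 to 99699478), had 7.03, 14.1 and 29.7 CPM in CPB hearts, against 4.25, 5.6 and 9.94 CPM in control hearts, and 14, 18.4 and 27.2 CPM in CPB kidneys, against 22.8, 37.1 and 72 CPM in control kidneys. Groups overlapped in both organs. Within animals the heart-minus-kidney difference was higher in each CPB animal than in each control. Such a gap, in either direction, was found in 1.95% of all genes tested. ESRRB was named for the size of its response difference, so the gap is a description. Its response difference was 2.18 ± 0.32 (SE, adjusted p = 0.000298). FRY, a large microtubule-associated scaffold protein, had a response difference of 2.40 ± 0.41 (SE, adjusted p = 0.000941), with log2 fold changes of 1.47 in heart and -1.20 in kidney. The largest response difference among the genes given with its error was that of RASAL1, a GTPase-activating protein that turns off Ras, at 5.03 ± 0.87 (SE, adjusted p = 0.00106). It is a low gene: levels were 0.635, 1.46 and 6.83 CPM in CPB hearts, against 0, 0.0377 and 0.383 CPM in control hearts, and 0.409, 1.06 and 1.4 CPM in CPB kidneys, against 1.13, 1.83 and 3.74 CPM in control kidneys, and the highest heart value came from CPB animal 11.

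LRP2, the endocytic receptor megalin that proximal tubule cells use to recover filtered protein, also rose in heart and fell in kidney. Heart levels were 0.586, 5.46 and 17.2 CPM in CPB hearts, against 0.23, 0.429 and 2.15 CPM in control hearts, and kidney levels were 464, 614 and 779 CPM in CPB kidneys, against 376, 982 and 1370 CPM in control kidneys. The heart groups overlapped, with values spread over more than 1 order of magnitude in CPB hearts, and the kidney groups overlapped too. Log2 fold changes were 3.32 ± 0.62 (SE, adjusted p = 0.0018) in heart and -0.71 ± 0.22 (SE, adjusted p = 0.0255) in kidney, and the response difference was 3.75 ± 0.62 (SE, adjusted p = 0.000747). Other tubule markers were at or near 0 in heart: SLC34A1, the phosphate transporter of proximal tubule, and AQP2, the collecting duct water channel, were at 0 in all 15 hearts, UMOD did not exceed 0.244 CPM, and CUBN, the partner receptor cubilin, had a median of 0.775 CPM in CPB hearts and 0.572 CPM in control hearts.

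**Figure D2:**
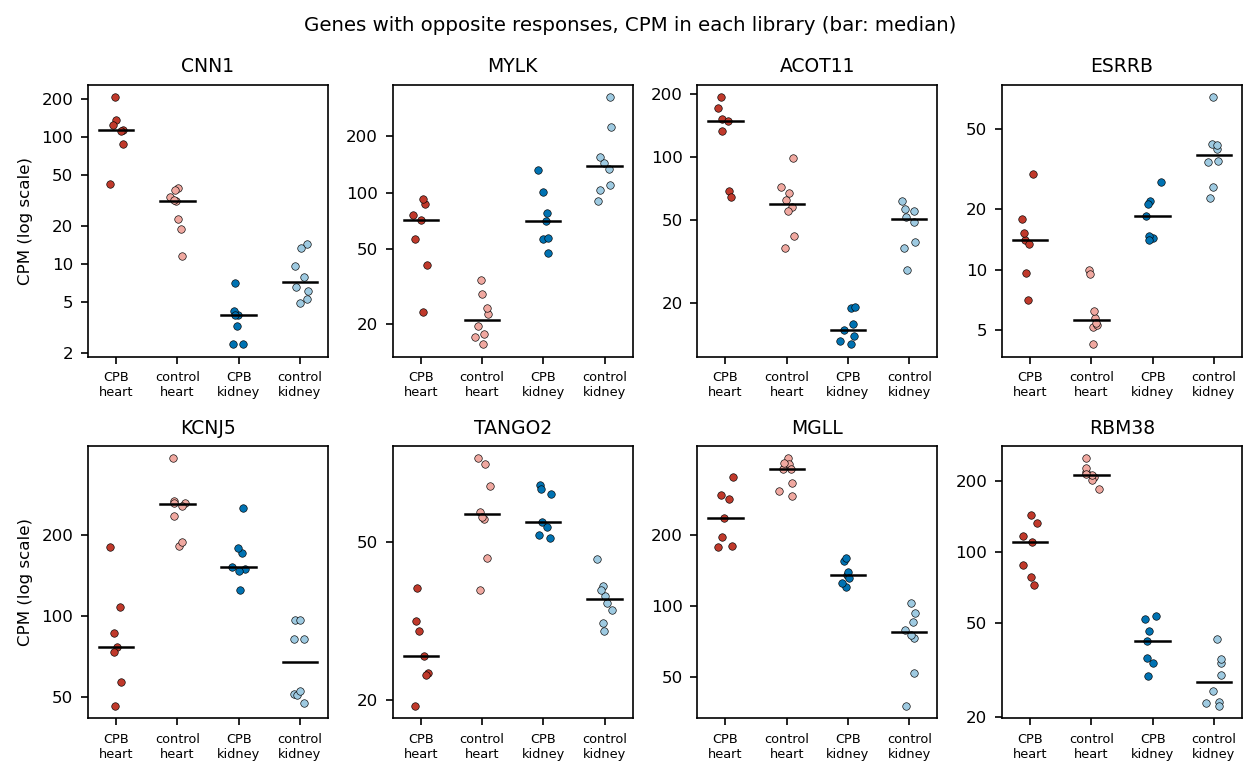
CPM on a log axis of 8 genes with opposite responses, 1 point per library, in 7 CPB hearts, 8 control hearts, 7 CPB kidneys and 8 control kidneys, with a bar at the median. In the upper 4 genes the median of CPB hearts lies above that of control hearts and the median of CPB kidneys below that of control kidneys, and in the lower 4 genes the order is reversed in each organ.

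Among the 31 genes that fell in heart and rose in kidney, KCNJ5 and SLC35C1 had groups that were apart in both organs. KCNJ5 encodes a subunit of the inwardly rectifying potassium channel through which acetylcholine slows the heart (ENSSSCG00000021573, chromosome 9, 55836777 to 55861288). Heart levels were 46.4, 76.7 and 182 CPM in CPB hearts, against 184, 262 and 387 CPM in control hearts. Kidney levels were 126, 152 and 254 CPM in CPB kidneys, against 47.6, 67.6 and 96.5 CPM in control kidneys. The groups did not overlap in heart and did not overlap in kidney, a pattern found in 0.247% of genes tested and in 4 of the 73 opposite responders. Both KCNJ5 and SLC35C1 were named for the size of their response difference, so the pattern is a description. KCNJ5 had a log2 fold change of -1.51 ± 0.24 (SE, adjusted p = 0.000467) in heart and 1.27 ± 0.18 (SE, adjusted p = 0.00014) in kidney. Its response difference was -2.90 ± 0.25 (SE, adjusted p = 2.23e-06). SLC35C1, which carries GDP-fucose into the Golgi for protein fucosylation, was likewise apart in both organs, with 2.38, 4.75 and 5.55 CPM in CPB hearts, against 5.67, 6.79 and 7.61 CPM in control hearts, and 31.6, 44 and 55.4 CPM in CPB kidneys, against 18.2, 22 and 25 CPM in control kidneys. SLC35C1 had a response difference of -1.60 ± 0.18 (SE, adjusted p = 1.68e-05).

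TANGO2, MGLL and RBM38 moved the same way. TANGO2, whose loss in humans causes metabolic crises with rhabdomyolysis and arrhythmia (ENSSSCG00000010134, chromosome 14, 51443597 to 51464370), had 19.3, 25.8 and 38.3 CPM in CPB hearts, against 37.8, 58.6 and 81.1 CPM in control hearts. In kidney it had 51.2, 56.1 and 69.6 CPM in CPB kidneys, against 29.8, 35.8 and 45.1 CPM in control kidneys. The kidney groups were apart, and in heart 1 CPB library overlapped the lowest control. TANGO2 had a response difference of -1.87 ± 0.21 (SE, adjusted p = 1.68e-05). MGLL, the lipase that splits monoglycerides and degrades the endocannabinoid 2-arachidonoylglycerol, had 178, 234 and 351 CPM in CPB hearts, against 292, 379 and 419.5 CPM in control hearts, and 121, 135 and 159.5 CPM in CPB kidneys, against 37.9, 77.4 and 102 CPM in control kidneys. Its response difference was -1.53 ± 0.23 (SE, adjusted p = 0.00043), with log2 fold changes of -0.57 in heart and 0.88 in kidney. RBM38, an RNA-binding protein that is a target and a regulator of p53, fell by 1.01 on the log2 scale in heart, where the groups were apart, and rose by 0.51 in kidney, a response difference of -1.56 ± 0.24 (SE, adjusted p = 0.000482).

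Further genes of the same pattern were LSMEM2, MYO7B and CDH1. LSMEM2, a leucine-rich membrane protein, changed by -0.86 ± 0.21 in heart and 1.55 ± 0.28 in kidney, a response difference of -2.36 ± 0.41 (SE, adjusted p = 0.00118). The last 2 genes are epithelial and low in heart. MYO7B, a myosin of the brush border microvilli, had medians of 1.18 CPM in CPB hearts and 2.79 CPM in control hearts, and 139 CPM in CPB kidneys and 78.5 CPM in control kidneys, with a response difference of -1.97 ± 0.29 (SE, adjusted p = 0.000374). CDH1, the epithelial adhesion protein E-cadherin, had medians of 0.299 CPM in CPB hearts and 1.29 CPM in control hearts, and 259 CPM in CPB kidneys and 196 CPM in control kidneys, with a response difference of -2.60 ± 0.65 (SE, adjusted p = 0.0161), and with no filter on low counts the adjusted p of CDH1 was 0.0547. Across all opposite responders, 46 of 73 genes had within-animal differences that did not overlap between CPB and control animals, against 1.95% of all genes tested; the response difference chose these genes, so the count is a description.

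**Figure D3:**
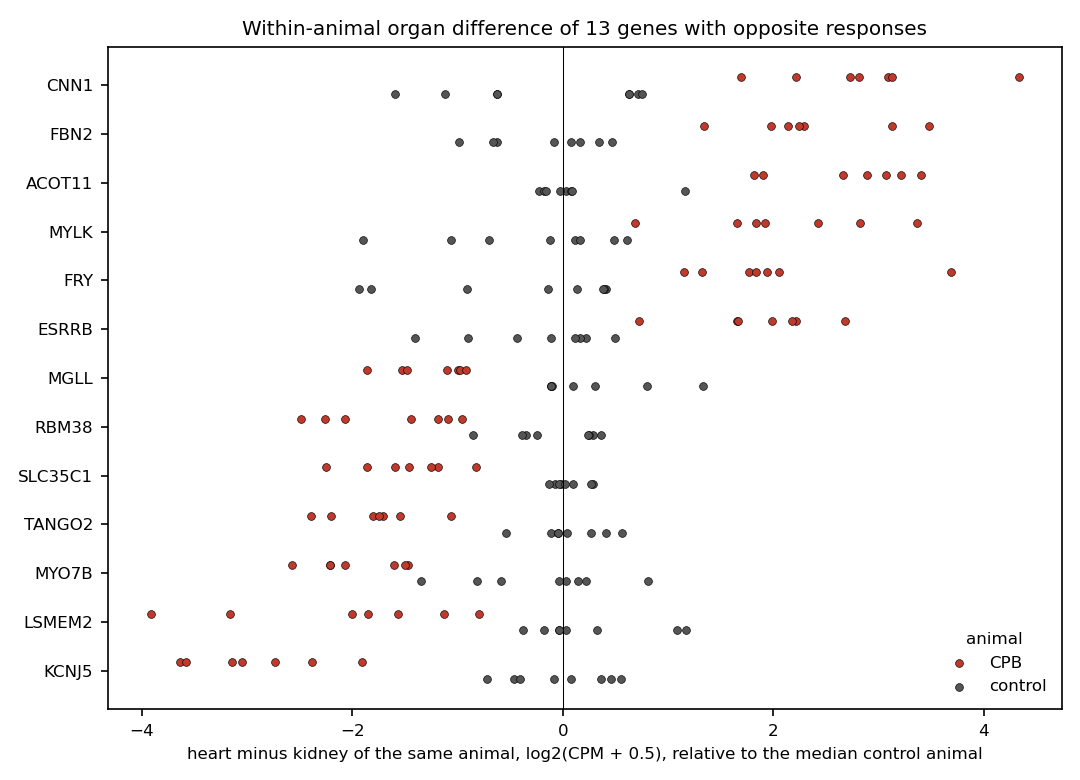
Heart minus kidney of the same animal, in log2(CPM + 0.5), after subtraction of the control animals' median, for 13 genes with opposite responses in 7 CPB animals (red) and 8 control animals (grey), 1 point per animal. All CPB points lie to the right of all control points for CNN1, FBN2, ACOT11, MYLK, FRY and ESRRB, and to the left for the other 7 genes. The 13 genes are a selection from the 73 opposite responders, of which 46 had CPB and control animals fully apart. LRP2 is not shown.

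Among genes that responded in heart alone, NPNT, MYL9, PTGFR and EHBP1 rose. NPNT encodes nephronectin, an integrin ligand of basement membranes (ENSSSCG00000038801, chromosome 8, 115768963 to 115861170). Its levels were 20.4, 31.7 and 60.4 CPM in CPB hearts, against 3.06, 6.07 and 8.9 CPM in control hearts. In kidney they were 114, 134 and 154 CPM in CPB kidneys, against 114, 156 and 187 CPM in control kidneys. The heart groups were apart and the kidney groups overlapped widely. The log2 fold change was 2.58 ± 0.32 (SE, adjusted p = 9e-05) in heart and -0.19 ± 0.10 (SE, adjusted p = 0.192) in kidney, and the response difference was 2.77 ± 0.36 (SE, adjusted p = 0.000159). MYL9, the regulatory myosin light chain of smooth muscle and nonmuscle cells, had 586, 911 and 1016 CPM in CPB hearts, against 241, 369 and 603 CPM in control hearts, and 240.2, 325 and 428 CPM in CPB kidneys, against 271, 395 and 675 CPM in control kidneys. In heart 6 of 7 CPB libraries lay above all controls, and the response difference was 1.52 ± 0.20 (SE, adjusted p = 0.000159). PTGFR, the receptor for prostaglandin F2 alpha, had heart levels of 4.39, 9.61 and 43.4 CPM in CPB hearts, against 1.08, 1.63 and 3.46 CPM in control hearts, with groups apart and the highest value in CPB animal 19, and a response difference of 2.45 ± 0.54 (SE, adjusted p = 0.0073). EHBP1, an adaptor that ties endocytic vesicles to actin, differed by 2.21 ± 0.40 (SE, adjusted p = 0.00174), with heart levels of 28.5, 148 and 311 CPM in CPB hearts, against 26.2, 28.9 and 33.7 CPM in control hearts and overlap between the groups.

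PDLIM3, a Z-disc protein that binds alpha-actinin, had the largest response difference among the muscle genes named here. It had 31.6, 85 and 93.2 CPM in CPB hearts, against 3.16, 4.43 and 13.2 CPM in control hearts, and 0.847, 1.79 and 2.99 CPM in CPB kidneys, against 1.78, 2.85 and 5.2 CPM in control kidneys. Its heart groups were apart. Log2 fold changes were 3.63 ± 0.35 (SE, adjusted p = 2.89e-05) in heart and -0.65 ± 0.28 (SE, adjusted p = 0.103) in kidney, and the response difference was 4.29 ± 0.42 (SE, adjusted p = 5.52e-06), so it fell in no class because the kidney value was beyond 0.5 and did not pass. Of the list of Z-disc and intercalated disc stress genes, 3 of 14 tested passed with heart above kidney and 0 with heart below, against 3.47% and 4.83% of all genes: PDLIM3, ANKRD2 and CCN2. The list's median response difference was -0.43, which differs in sign from these 3 calls. Over the settings tried this median ran from -0.67 to 0.53, so its sign was not stable. In heart 6 of the 14 genes rose and 0 fell, against 6.39% and 5.53% of all genes tested in heart. In kidney 1 rose and 0 fell, against 11.3% and 9.87% of all genes tested in kidney. ANKRD2, a stretch-responsive ankyrin repeat protein, had medians of 3.19 CPM in CPB hearts and 0.58 CPM in control hearts, and 1.13 CPM in CPB kidneys and 0.938 CPM in control kidneys, with a response difference of 2.00 ± 0.46 (SE, adjusted p = 0.01). CCN2, the matricellular connective tissue growth factor, differed by 1.22 ± 0.37 (SE, adjusted p = 0.0481), with 0.106 as its adjusted p without the animal block and a call lost in 11 of 15 fits that leave out 1 animal and without control animals 14 and 15.

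The list of actin cytoskeleton genes and SRF targets had 8 of 20 tested genes with heart above kidney and 0 with heart below, against 3.47% and 4.83% of all genes. These were CNN1, MYL9, FLNC, FLNA, CCN2, VCL, TAGLN and the factor SRF itself. The list's median log2 fold change was 0.39 in heart and -0.15 in kidney. FLNC, the muscle filamin that crosslinks actin at the Z-disc, had medians of 2327 CPM in CPB hearts and 1121 CPM in control hearts, and 20.1 CPM in CPB kidneys and 21.8 CPM in control kidneys, with a response difference of 1.48 ± 0.43 (SE, adjusted p = 0.0357). FLNA, the widespread filamin, differed by 1.29 ± 0.22, VCL, the adhesion protein vinculin, by 0.98 ± 0.28, and SRF by 0.93 ± 0.27. The calls of FLNC, VCL and SRF were each lost in 9 of 15 fits that leave out 1 animal, with adjusted p up to 0.0868. Without CPB animals 6 and 9, whose kidneys held cardiomyocyte transcripts, 3 genes of the list passed with heart above kidney and 1 with heart below, without control animals 1 and 26 the counts were 6 and 0, and without control animals 14 and 15 they were 3 and 0.

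Heat shock partner genes, a calcium pump gene, a glucose transporter gene and a clock gene rose in heart without a call in kidney. DNAJA4 and DNAJB4, partner proteins of the chaperone HSP70, were the 2 of 20 heat shock genes tested that passed, and both had heart above kidney, against 3.47% of all genes. DNAJA4 had 86.5, 147 and 207 CPM in CPB hearts, against 38, 56.4 and 77.5 CPM in control hearts, with groups apart, and a response difference of 1.29 ± 0.26 (SE, adjusted p = 0.00345). DNAJB4 had 64.5, 81.7 and 94.2 CPM in CPB hearts, against 38.1, 47.4 and 62.2 CPM in control hearts, also apart, and a response difference of 0.98 ± 0.16 (SE, adjusted p = 0.00052). ATP2A2, the SERCA2 pump that returns calcium to the sarcoplasmic reticulum, had 2225, 2776 and 4320 CPM in CPB hearts, against 1148, 1862 and 2481 CPM in control hearts, and 124, 154 and 189 CPM in CPB kidneys, against 136, 157 and 186 CPM in control kidneys. Its response difference was 0.78 ± 0.19 (SE, adjusted p = 0.0157), and the adjusted p was 0.0509 without CPB animals 6 and 9 and 0.0571 without control animals 14 and 15. SLC2A1, the basal glucose transporter GLUT1, differed by 1.08 ± 0.26 (SE, adjusted p = 0.0123), with medians of 37 CPM in CPB hearts and 18.9 CPM in control hearts, and 75.7 CPM in CPB kidneys and 79.9 CPM in control kidneys. ARNTL, the clock activator BMAL1, differed by 0.83 ± 0.19 (SE, adjusted p = 0.0103), with medians of 16 CPM in CPB hearts and 10.4 CPM in control hearts, and 25.4 CPM in CPB kidneys and 26.6 CPM in control kidneys.

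MLYCD, CPT2, EHHADH and ANGPTL4, which act in fatty acid use, fell in heart and did not pass in kidney. MLYCD removes malonyl-CoA, the molecule that blocks fatty acid entry into mitochondria (ENSSSCG00000031450, chromosome 6, 4683386 to 4698698). Its levels were 5.22, 14.6 and 50.5 CPM in CPB hearts, against 31.4, 74.8 and 105 CPM in control hearts, and 8.35, 12.2 and 15 CPM in CPB kidneys, against 7.6, 10.8 and 18.3 CPM in control kidneys. Heart groups overlapped, and in the kidney the groups covered the same range. The log2 fold change was -1.77 ± 0.41 (SE, adjusted p = 0.00865) in heart and -0.01 ± 0.18 (SE, adjusted p = 0.966) in kidney, and the response difference was -2.02 ± 0.30 (SE, adjusted p = 0.000311). CPT2, the inner-membrane carnitine palmitoyltransferase, differed by -0.73 ± 0.16 (SE, adjusted p = 0.00835), and EHHADH, a peroxisomal enzyme of beta-oxidation, by -0.73 ± 0.21 (SE, adjusted p = 0.0319). Without the animal block their adjusted p were 0.121 for CPT2 and 0.129 for EHHADH. ANGPTL4, a secreted inhibitor of lipoprotein lipase, lay at the border with -1.94 ± 0.59 (SE, adjusted p = 0.0443), and its adjusted p was 0.0949 without the block and up to 0.102 when 1 animal was left out, with the call lost in 12 of 15 such fits. EHHADH lost its call in 6 of these fits, and ANGPTL4 and EHHADH lost theirs without control animals 14 and 15. In all, 3 of 26 genes of the list of fatty acid oxidation and PPAR alpha targets passed with heart below kidney and 1, PPARA, with heart above, against 4.83% and 3.47% of all genes. The list's median response difference was -0.02, and 0 to 3 of its genes passed with heart below kidney over the settings tried, with 1 without control animals 1 and 26 and 1 without control animals 14 and 15.

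AZIN2, which frees ornithine decarboxylase from its inhibitor and so raises polyamine synthesis, had 0.379, 0.898 and 1.26 CPM in CPB hearts, against 1.88, 3.01 and 7.31 CPM in control hearts, and 3.68, 4.67 and 8.56 CPM in CPB kidneys, against 3.29, 4.74 and 6.98 CPM in control kidneys. The heart groups were apart and the kidney groups were not, and the response difference was -2.17 ± 0.31 (SE, adjusted p = 0.000285). MVD, an enzyme of the mevalonate pathway to cholesterol, had 11.4, 12.3 and 15.6 CPM in CPB hearts, against 21.5, 25.2 and 37.5 CPM in control hearts, with groups apart, and a response difference of -1.01 ± 0.14 (SE, adjusted p = 0.000178). NSDHL, a later enzyme of cholesterol synthesis, also passed with heart below kidney, at -0.89 ± 0.18 (SE, adjusted p = 0.00495), but by a rise in kidney of 1.02 ± 0.17 (SE, adjusted p = 0.000532) while heart was at 0.04 ± 0.11. MBP, the myelin basic protein gene, which also yields transcripts outside myelin, differed by -1.93 ± 0.44 (SE, adjusted p = 0.00932), with medians of 26.8 CPM in CPB hearts and 102 CPM in control hearts, and 142 CPM in CPB kidneys and 112 CPM in control kidneys.

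**Figure D4:**
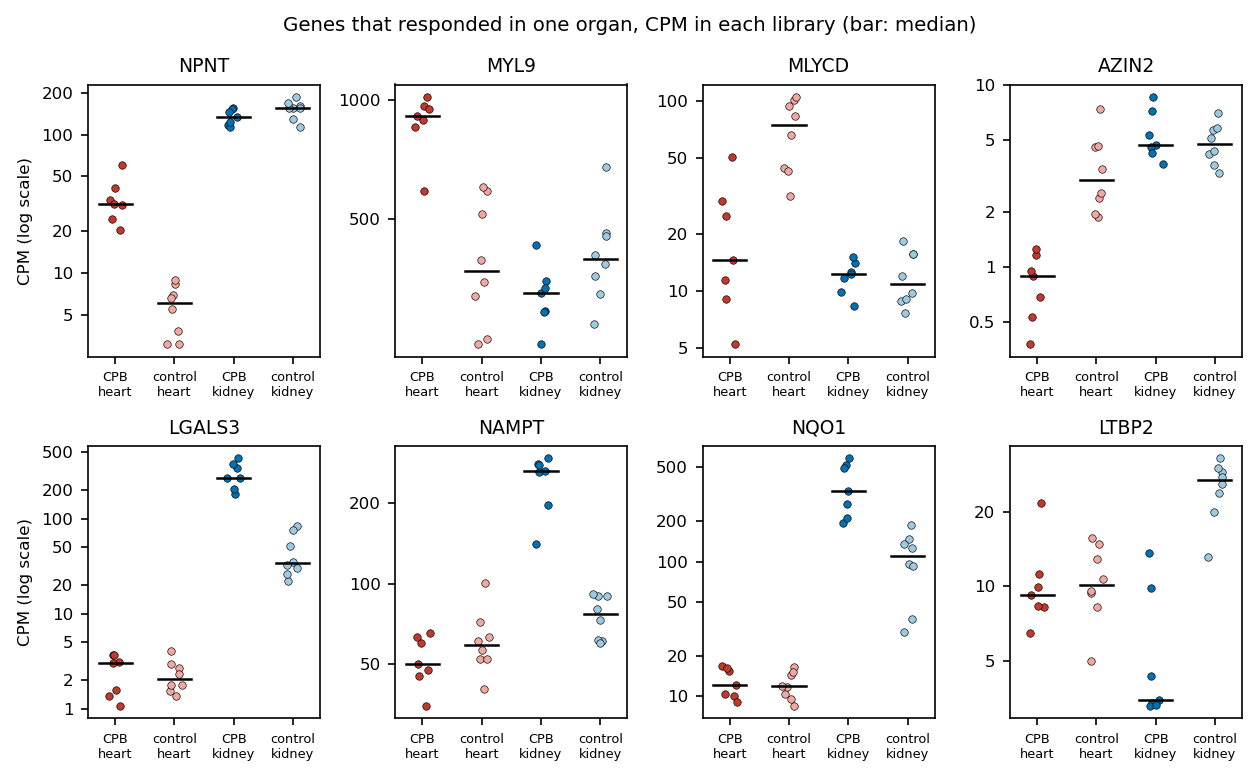
CPM on a log axis of 8 genes that responded in 1 organ, 1 point per library, with a bar at the median. By their medians NPNT and MYL9 are higher and MLYCD and AZIN2 lower in CPB hearts than in control hearts, and LGALS3, NAMPT and NQO1 are higher and LTBP2 lower in CPB kidneys than in control kidneys, while the groups of the other organ overlap.

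In kidney, tubule injury genes rose that did not pass in heart. LGALS3 encodes galectin 3, a lectin made by injured epithelium and by macrophages (ENSSSCG00000005055, chromosome 1, 184478639 to 184496155). In heart it had 1.07, 2.98 and 3.68 CPM in CPB hearts, against 1.34, 2.05 and 3.99 CPM in control hearts. In kidney it had 179, 269.7 and 429 CPM in CPB kidneys, against 22.1, 33.9 and 84 CPM in control kidneys. The kidney groups were apart and the heart groups overlapped. Log2 fold changes were 0.12 ± 0.30 (SE, adjusted p = 0.836) in heart and 2.73 ± 0.28 (SE, adjusted p = 4.27e-06) in kidney, and the response difference was -2.73 ± 0.42 (SE, adjusted p = 0.000434). SPP1, the secreted phosphoprotein osteopontin, had medians of 9.59 CPM in CPB hearts and 16.3 CPM in control hearts, and 1343 CPM in CPB kidneys and 503 CPM in control kidneys, with a response difference of -2.25 ± 0.44 (SE, adjusted p = 0.0034).

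Of 20 genes tested in the list of kidney tubule injury genes and simple keratins, 7 passed with heart below kidney and 0 with heart above, against 4.83% and 3.47% of all genes. These were LGALS3, SPP1, CDKN1A, TNFRSF12A, KRT8, ANXA1 and ANXA2. The list's median log2 fold change was 0.24 in heart and 0.99 in kidney. KRT8, the simple epithelial keratin 8, differed by -1.11 ± 0.34 (SE, adjusted p = 0.0487), with 0.284 as adjusted p without the animal block. ANXA1 and ANXA2, calcium-dependent membrane-binding annexins, differed by -1.30 ± 0.30 (SE, adjusted p = 0.011) and -1.07 ± 0.30 (SE, adjusted p = 0.0325), and their adjusted p without the block were 0.189 for ANXA1 and 0.108 for ANXA2. Of these 7 genes, TNFRSF12A and ANXA2 rose in heart too. KRT8 lost its call in 12 and ANXA2 in 10 of the 15 fits that leave out 1 animal. TNFRSF12A lost it without either pair of control animals. Without CPB animals 6 and 9 the list's count was 5, without control animals 1 and 26 it was 4, and without control animals 14 and 15 it was 6. Macrophage markers summed to 360, 472 and 681 CPM in CPB kidneys, against 424, 698 and 2530 CPM in control kidneys, with the highest sum in control animal 15, and their part in the LGALS3 values was not tested. Tight junction genes went the same way, with 3 of 10 tested passing with heart below kidney and 0 above, against 4.83% and 3.47% of all genes: CLDN7, a claudin of the tubule epithelium, at -1.22 ± 0.29, F11R, the junctional adhesion molecule A, at -0.82 ± 0.20, and CDH1. F11R had an adjusted p of 0.0517 without control animals 1 and 26.

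Antioxidant genes under NRF2 were a second list with more rises in kidney than in heart. Of 18 tested, 7 passed with heart below kidney and 0 with heart above, against 4.83% and 3.47% of all genes. In kidney 10 rose and 0 fell, against 11.3% and 9.87% of all genes tested in kidney. In heart 3 rose and 1 fell, against 6.39% and 5.53% of all genes tested in heart. The list's median log2 fold change was 0.20 in heart and 0.87 in kidney. NQO1, a quinone reductase and standard NRF2 target (ENSSSCG00000002754, chromosome 6, 17292962 to 17302593), had 9.14, 12.1 and 16.9 CPM in CPB hearts, against 8.51, 11.9 and 16.6 CPM in control hearts. In kidney it had 192, 333 and 582 CPM in CPB kidneys, against 29.8, 111 and 188 CPM in control kidneys. CPB kidneys lay above all control kidneys, while the heart groups covered nearly the same range. NQO1 had a response difference of -1.81 ± 0.38 (SE, adjusted p = 0.00538). Heart minus kidney within an animal, in log2(CPM + 0.5), was -1.298 and -1.267 for NQO1 in control animals 14 and 15, -3.522 to -3.22 in the other controls and -5.109 to -3.93 in CPB animals. Without these 2 controls the response difference of NQO1 was -1.30, with an adjusted p of 0.00473. OSGIN1, an oxidative stress-induced growth inhibitor, differed by -1.91 ± 0.49 (SE, adjusted p = 0.0194), with medians of 1.42 CPM in CPB hearts and 1.9 CPM in control hearts, and 102 CPM in CPB kidneys and 41.2 CPM in control kidneys. OSGIN1 lost its call with limma-voom and a shared correlation, with no filter on low counts and without control animals 14 and 15, with adjusted p up to 0.135. GCLC and GCLM, the catalytic and modifier subunits of the first enzyme of glutathione synthesis, differed by -1.22 ± 0.27 (SE, adjusted p = 0.00866) and -1.19 ± 0.16 (SE, adjusted p = 0.000195). Malic enzyme ME1 and glutathione reductase GSR differed by -1.22 ± 0.36 and -0.94 ± 0.20, and ME1 had an adjusted p of 0.073 without the animal block and lost its call in 11 of 15 fits that leave out 1 animal. Over all settings tried, 4 to 7 genes of the list passed with heart below kidney, with 4 without control animals 14 and 15.

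HMOX1, the heme-degrading enzyme heme oxygenase 1, rose in both organs and more in kidney. Its levels were 18.6, 25.5 and 72.1 CPM in CPB hearts, against 2.38, 3.67 and 34.2 CPM in control hearts, and 252, 1659 and 4222 CPM in CPB kidneys, against 42.2, 81.2 and 333 CPM in control kidneys. Control animal 15 was the highest control in heart and in kidney, and the next control value was 5.91 CPM in heart and 120 CPM in kidney, so that the groups overlapped through that animal alone. The log2 fold change was 2.12 ± 0.55 (SE, adjusted p = 0.0179) in heart and 4.24 ± 0.60 (SE, adjusted p = 0.000129) in kidney. The response difference was -1.56 ± 0.46 (SE, adjusted p = 0.0387), and its adjusted p was 0.102 without the block. The call was lost in 12 of 15 fits that leave out 1 animal, with adjusted p up to 0.0896, and the adjusted p was 0.141 without control animals 14 and 15.

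CDKN1A, NAMPT, HMGA1 and ZFAND2A also rose in kidney without a call in heart. CDKN1A, the cell cycle inhibitor p21, had medians of 19.1 CPM in CPB hearts and 22.6 CPM in control hearts, and 18.7 CPM in CPB kidneys and 5.87 CPM in control kidneys, with a response difference of -1.76 ± 0.39 (SE, adjusted p = 0.0083). It was 1 of 4 among 19 p53 targets that passed, all with heart below kidney, against 4.83% of all genes. PLK2, a stress-induced polo-like kinase, differed by -1.40 ± 0.28 (SE, adjusted p = 0.00349), AEN, an apoptosis-enhancing nuclease, by -0.77 ± 0.17, and GADD45A, a growth arrest gene, by -1.13 ± 0.31, the last with a fold change in heart of -0.85 ± 0.23. GADD45A had an adjusted p of 0.0843 without the block and lost its call in 7 of 15 fits that leave out 1 animal and without control animals 14 and 15. NAMPT, the rate-limiting enzyme of NAD salvage, had 140.3, 263 and 293 CPM in CPB kidneys, against 60.2, 76.8 and 91.4 CPM in control kidneys, with groups apart, and a response difference of -1.90 ± 0.20 (SE, adjusted p = 8.06e-06). HMGA1, an architectural chromatin protein, had 126, 223 and 329.5 CPM in CPB kidneys, against 42.9, 55.8 and 92.8 CPM in control kidneys, also apart, and a response difference of -1.88 ± 0.25 (SE, adjusted p = 0.000159). ZFAND2A, a proteasome-associated protein induced by heat shock and arsenite, had 35.9, 60 and 166 CPM in CPB kidneys, against 8.13, 13.5 and 17.6 CPM in control kidneys, apart as well, and differed by -2.19 ± 0.29 (SE, adjusted p = 0.000175). Heart groups overlapped for CDKN1A, NAMPT, HMGA1 and ZFAND2A.

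Signalling genes of the kidney-restricted class were IL6R, ATF4 and ADM. IL6R, the receptor for interleukin 6, differed by -0.95 ± 0.20 (SE, adjusted p = 0.00676), with medians of 23.6 CPM in CPB hearts and 29.5 CPM in control hearts, and 43.9 CPM in CPB kidneys and 25.6 CPM in control kidneys. ATF4, the transcription factor of the integrated stress response, differed by -0.90 ± 0.24 (SE, adjusted p = 0.0227), and the call was lost without CPB animals 2, 19 or 25, with adjusted p up to 0.061, and without either pair of control animals. ADM, the vasodilator peptide adrenomedullin, differed by -1.37 ± 0.32 (SE, adjusted p = 0.011), and the adjusted p was 0.0502 without the block. It was 1 of 3 hypoxia and glycolysis genes, of 23 tested, that passed with heart below kidney, against 4.83% of all genes. The other 2 were P4HA1, a prolyl hydroxylase of collagen, at -0.73 ± 0.18, and the angiogenic factor VEGFA, at -0.70 ± 0.20, with adjusted p of 0.179 and 0.12 without the block, while SLC2A1 went the other way. VEGFA lost its call in 8 of 15 fits that leave out 1 animal and without control animals 14 and 15. P4HA1 and VEGFA also lost theirs with limma-voom and a shared correlation, and P4HA1 without control animals 1 and 26.

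FOSL1, a component of the AP-1 transcription factor, had a response difference of -3.69 ± 0.57 (SE, adjusted p = 0.000481). Its log2 fold change was 1.67 ± 0.91 in heart, which did not pass, and 5.02 ± 0.72 (SE, adjusted p = 0.000144) in kidney, where the groups were apart. The adjusted p of the difference was 0.0701 without the block. FOSL1 also lost its call with limma-voom and a shared correlation, with adjusted p up to 0.149 over all settings. CPB animal 19 held the highest value in both organs, 7.65 CPM in heart and 31.7 CPM in kidney. Of 26 immediate early response genes tested, KLF6 and MCL1 passed with FOSL1 in the direction of heart below kidney, at -0.62 ± 0.15 and -0.61 ± 0.15, and DUSP1, a phosphatase that shuts off MAP kinases, passed with heart above kidney at 0.73 ± 0.20 (SE, adjusted p = 0.0314), counts to be set against 4.83% and 3.47% of all genes. Without the block, the adjusted p were 0.253 for KLF6, 0.0751 for MCL1 and 0.0923 for DUSP1. KLF6 and DUSP1 also lost their calls with limma-voom and a shared correlation. MCL1 lost its call without CPB animal 2 or 25, DUSP1 in 6 of 15 fits that leave out 1 animal, and both without control animals 14 and 15.

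LTBP2, PDZRN3, KCNH2, NR1D1 and PLIN1 fell in kidney and did not pass in heart. LTBP2, a microfibril-associated relative of the TGF-beta binding proteins (ENSSSCG00000002368, chromosome 7, 97744974 to 97852848), had 6.46, 9.19 and 21.7 CPM in CPB hearts, against 5.01, 10.2 and 15.7 CPM in control hearts. In kidney it had 3.29, 3.48 and 13.6 CPM in CPB kidneys, against 13.2, 26.8 and 32.8 CPM in control kidneys. The heart groups overlapped widely, and of 7 CPB kidneys 6 lay below all control kidneys. Its log2 fold change was -0.01 ± 0.25 (SE, adjusted p = 0.983) in heart and -2.09 ± 0.34 (SE, adjusted p = 0.000359) in kidney, and the response difference was 2.24 ± 0.33 (SE, adjusted p = 0.000295). PDZRN3, a ubiquitin ligase with PDZ domains, had 4.66, 6.46 and 8.85 CPM in CPB kidneys, against 13.3, 17.2 and 48.4 CPM in control kidneys, with groups apart, and differed by 1.87 ± 0.32 (SE, adjusted p = 0.000931). KCNH2, the hERG potassium channel that repolarises cardiomyocytes, had medians of 107 CPM in CPB hearts and 146 CPM in control hearts, and 2.33 CPM in CPB kidneys and 10.3 CPM in control kidneys, and differed by 1.48 ± 0.35 (SE, adjusted p = 0.0128), with an adjusted p of 0.0614 without CPB animals 6 and 9. NR1D1, the clock repressor REV-ERB alpha, differed by 0.94 ± 0.29 (SE, adjusted p = 0.0465) and lost its call in 11 of 15 fits that leave out 1 animal and without control animals 14 and 15. KCNH2 and ATP2A2 were the 2 of 26 genes of cardiomyocyte contraction and excitation that passed, and NR1D1 and ARNTL the 2 of 18 clock genes, all with heart above kidney, against 3.47% of all genes. KCNH2, ATP2A2 and NR1D1 lost their calls without CPB animals 6 and 9. In that fit 1 other gene of the contraction list passed with heart above kidney. Of the clock list, ARNTL passed with heart above kidney and 1 gene with heart below.

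Fibroblast marker sums, and fat cell marker sums without PCK1, had lower medians in CPB kidneys than in control kidneys. The 10 fibroblast markers summed to 1360, 1870 and 2270 CPM in CPB hearts, against 1160, 1630 and 3270 CPM in control hearts, and to 808, 1930 and 3050 CPM in CPB kidneys, against 1700, 3930 and 5570 CPM in control kidneys. PCK1, the gluconeogenic enzyme that proximal tubule makes too, was 98% of the kidney sum of the 10 fat cell markers in the CPB group and 96.8% in the control group. The other 9 summed to 684, 1230 and 1410 CPM in CPB hearts, against 770, 865 and 1280 CPM in control hearts, and to 41.9, 47.8 and 52.8 CPM in CPB kidneys, against 47.6, 79.8 and 327 CPM in control kidneys. ADIPOQ and LEP were at 0 in all CPB kidneys, and 3 of the 7 markers that could be tested passed with heart above kidney, against 3.47% of all genes: ADIPOQ, PLIN1 and LPL. Without control animals 1 and 26 the count was 1. Of the fibroblast markers, MFAP5, a microfibril glycoprotein, passed at 2.75 ± 0.79 (SE, adjusted p = 0.0342), and none was at 0 in all libraries of a group. PLIN1, the lipid droplet coat protein of fat cells, passed at 3.69 ± 1.09 (SE, adjusted p = 0.0394), with kidney levels of 0.0732, 0.175 and 0.509 CPM in CPB kidneys, against 0.49, 1.52 and 28.8 CPM in control kidneys. MFAP5 lost its call in 7 and PLIN1 in 10 of 15 fits that leave out 1 animal. Both also lost it without control animals 1 and 26. The part of connective and fat tissue in the kidney samples was not tested.

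Among the 28 genes that moved the same way in both organs, ATP13A3, a polyamine transporter, and TP53INP2, a nuclear protein that acts in autophagy, rose more in heart. ATP13A3 had 64.2, 133 and 173 CPM in CPB hearts, against 25.3, 33.5 and 44.7 CPM in control hearts, with groups apart, and 79.5, 92.9 and 133 CPM in CPB kidneys, against 62.9, 78.1 and 93.1 CPM in control kidneys. Its log2 fold change was 1.94 ± 0.29 (SE, adjusted p = 0.000342) in heart and 0.36 ± 0.12 (SE, adjusted p = 0.0413) in kidney, and the response difference was 1.55 ± 0.33 (SE, adjusted p = 0.00551). TP53INP2 differed by 1.47 ± 0.26 (SE, adjusted p = 0.00115), with medians of 193 CPM in CPB hearts and 53.6 CPM in control hearts, and 43.8 CPM in CPB kidneys and 30.9 CPM in control kidneys. IGFBP5, a binding protein of insulin-like growth factors, fell in both organs and more in kidney, where it had 232, 292 and 552 CPM in CPB kidneys, against 805, 934 and 3250 CPM in control kidneys with groups apart, and its response difference was 1.24 ± 0.27 (SE, adjusted p = 0.00746). TNFRSF12A, the receptor Fn14 for the cytokine TWEAK, rose by 2.14 ± 0.45 in heart and 3.65 ± 0.27 in kidney. Its response difference was -1.80 ± 0.53 (SE, adjusted p = 0.0374), with an adjusted p of 0.0713 without the block and a call lost in 10 of 15 fits that leave out 1 animal and without control animals 14 and 15. MLF1, a protein first described in myeloid leukemia, rose in both organs and more in kidney, a response difference of -1.14 ± 0.22 (SE, adjusted p = 0.00345).

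In several gene groups no response difference passed. Of 29 type I interferon stimulated genes tested, 0 passed in edgeR's test in either direction. Their median log2 fold change was -1.32 in heart and -1.30 in kidney. Within each organ, only 3 of the 29 fell by the test in heart and 3 in kidney, and 0 rose. The share that fell over all genes tested was 5.53% in heart and 9.87% in kidney. For the response difference, 4 of the 29 had an unadjusted p under 0.05, DESeq2 called 2 and limma-voom 0. The counts by edgeR were also 0 for 28 cytosolic ribosomal protein genes, 19 proteasome subunits, 13 genes encoded by mitochondrial DNA and 14 endothelial markers. They were 0 as well for 17 monocyte and macrophage markers, 15 T and NK cell markers, 12 muscle ubiquitin ligases and adaptors and 22 cell cycle genes. Over all genes tested 8.31% passed, so a count of 0 in a short list does not set that list apart. Of the 17 monocyte and macrophage markers, 0 rose and 9 fell in kidney, against 11.3% and 9.87% of all genes tested in kidney. In heart 2 rose and 1 fell, against 6.39% and 5.53% of all genes tested in heart. The 17 markers had a median log2 fold change of -0.42 in heart and -0.91 in kidney, and 16 had a response difference above 0. At an unadjusted p under 0.05 there were 2 endothelial and 2 macrophage markers, 1 ubiquitin ligase gene and 1 cell cycle gene, and 0 of the other lists. DESeq2 called 1 endothelial marker, 1 macrophage marker and 1 cell cycle gene, as did limma-voom with the animal as a block. Neither called a gene of the other 5 lists. Of all 14569 genes, DESeq2 called 1732 and limma-voom with the animal as a block 1292. RBM3 and CIRBP encode RNA-binding proteins known to be induced by cold. RBM3 had 131, 256 and 380.5 CPM in CPB hearts, against 51.1, 128 and 174 CPM in control hearts, and 132, 298 and 467 CPM in CPB kidneys, against 67.8, 147 and 335 CPM in control kidneys, and its response difference was 0.10 ± 0.24 (SE, adjusted p = 0.862), with a 95% interval of -0.405 to 0.608. For CIRBP it was 0.21 ± 0.13 (SE, adjusted p = 0.385), with an interval of -0.0663 to 0.487. A p above the threshold does not show that the organs responded alike.

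**Figure D5:**
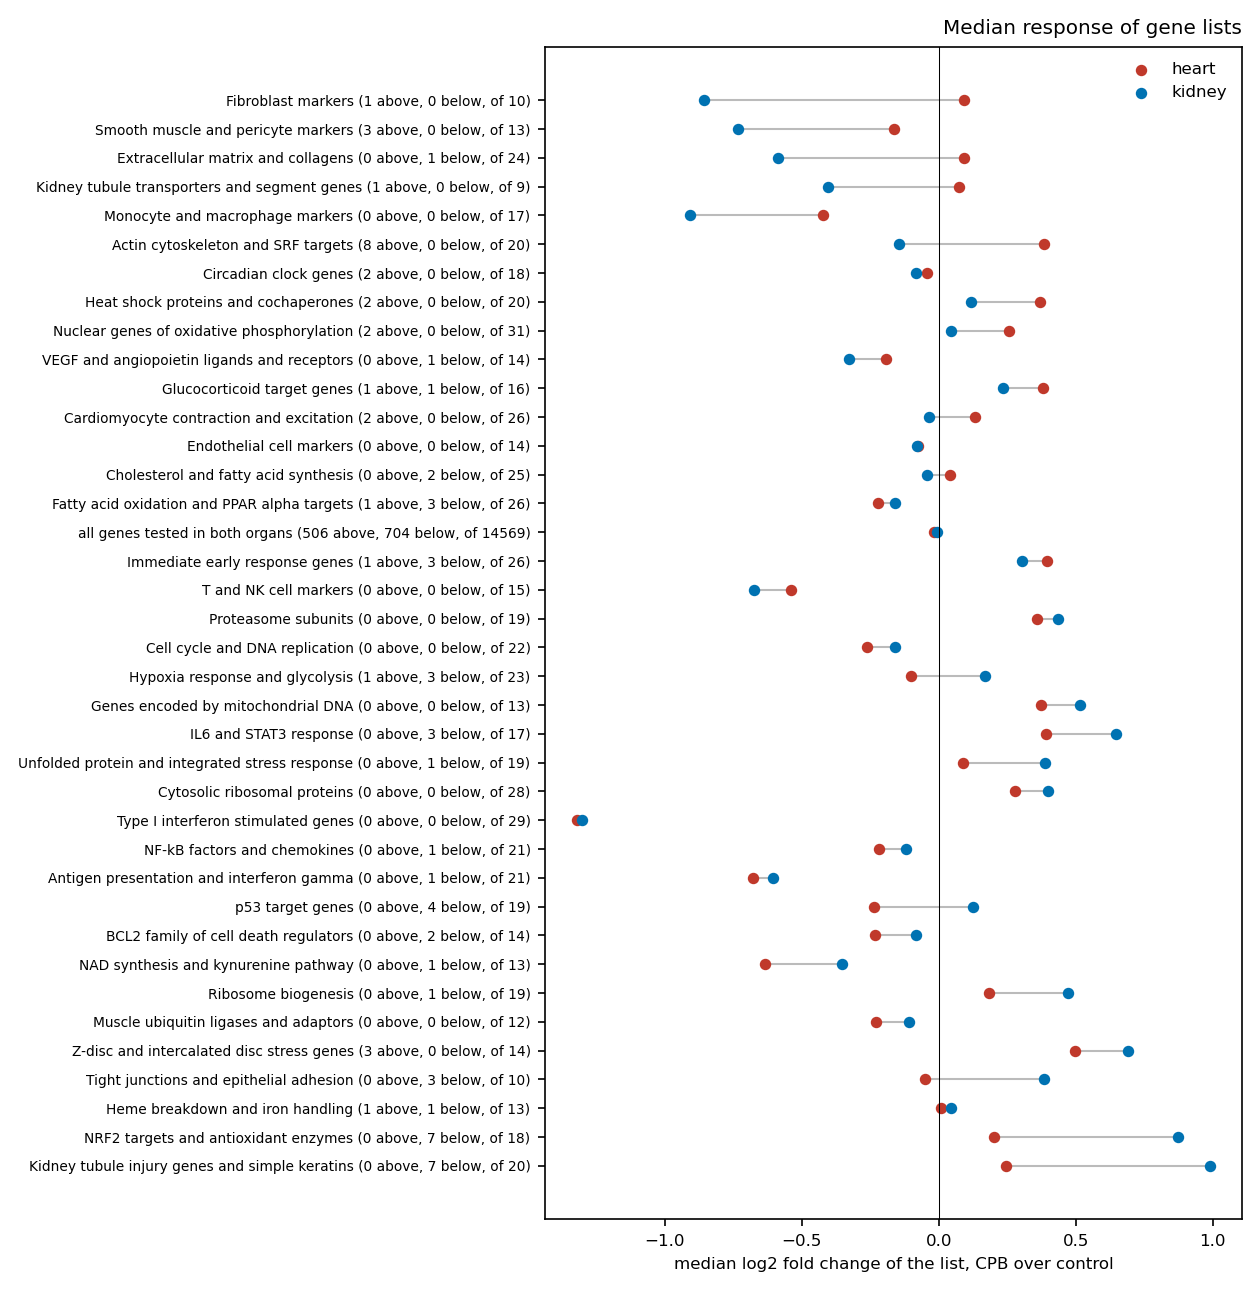
Median log2 fold change of CPB over control in heart (red) and in kidney (blue) for 37 gene lists with at least 9 genes tested in both organs and for all genes tested, ordered from top to bottom by the median response difference. The numbers beside each name are the genes that passed the response difference with heart above kidney and with heart below kidney. Antioxidant and tubule injury lists lie at the bottom, with kidney medians of 0.87 and 0.99.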

How the data were processed

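RNA-seq libraries of pig left ventricle and kidney cortex were analysed from the estimated counts per gene that the authors deposited, in which 92.9 to 96.6% of values per library were whole numbers; these expected counts were rounded before use. Per the submitters' processing notes the build was Sscrofa11.1 and the tools named are STAR and Salmon, beside cutadapt, Trim Galore, bcl2fastq and MultiQC, with roles and versions not given in the sources used here. Of 35670 genes in the table, 17508 carried a deposited symbol and 223 were named from an ID table. Totals of the 38 libraries ran from 20 to 42.7 M counts, and no 2 libraries held identical values.

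Genes were filtered with filterByExpr and scaled by TMM within each organ, and CPM are relative to that scaled total. Each organ was fitted alone over its CPB, control and linrodostat libraries with edgeR 4.0.16 in R 4.3.3 by the quasi-likelihood test, with Benjamini-Hochberg adjustment over all genes and a threshold of 0.05. The response difference was fitted over both organs with the animal as a block, which leaves 16 residual degrees of freedom. The labels number the animals and the same number in both organs is 1 animal: over 15 animals the same-animal correlation of deviations from the group means was 0.131 to 0.44 (median 0.299), against a median of -0.0431 between animals. Standard errors come from the fitted model, and single-library values carry counting and technical error that 1 library per animal and organ does not separate from the spread between animals.

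The genes named were chosen by rule: the 8 opposite responders each way, the 6 organ-restricted genes each way and the 4 same-direction genes each way with the largest response difference among genes with a symbol and at least 2 CPM, and up to 3 members of each of 47 gene lists, plus HMOX1, RBM3, CIRBP, PDLIM3 and KRT8. Not all are printed, and SRF, VCL, FLNA, GCLC, GCLM, ME1, GSR, ANXA1, ANXA2, CPT2 and AEN were named as list members after their values were seen. The comparison, the members and the lists were chosen with earlier results of these data known. ADIPOQ is given as levels with no fold, since all CPB kidneys were at 0. Gene positions are from RefSeq on Sscrofa11.1. The alternatives were other scaling, filters and models (limma 3.58.1 with voom, DESeq2 1.42.0), a sex term, thinned kidney counts and each animal left out. After seeing the data, the removal of CPB animals 6 and 9, of control animals 1 and 26, of control animals 14 and 15 and of genes 100-fold apart between organs was added. The fit of the response difference was tested on simulated counts.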

Additional observations from a re-analysis of the deposited data

Results flagged for a closer look

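The CPB response differed between heart and kidney in 1210 genes by the test of the difference itself, in opposite directions in 73 of them, and 84 of the genes whose response difference is given with its error are among the 1210.

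For the genes that were named by rule and are given here, single libraries stood outside the rest of their group by Dixon's test in 43 of 300 groups (14.3%). Chance gives about 5% for independent groups of normally distributed values. The test was run on CPM without a log step, and the genes share the same libraries. The share above 5% therefore does not show an excess of outliers. The values that follow are CPM of the library concerned, higher than the rest of its group unless said otherwise. CPB animal 19 had 7 of these values in heart and 3 in kidney, more than any other animal. Its heart had 43.4 for PTGFR, 16.2 for ADM, 293 for TNFRSF12A, 72.1 for HMOX1, 299 for MLF1 and 7.65 for FOSL1, and was lower than the other CPB hearts for LPL at 445. Its kidney had 7.07 for CNN1, 383 for ATF4 and 31.7 for FOSL1. CPB animal 2 had 137 for FRY and 79.4 for SLC2A1 in heart, and in kidney 254 for KCNJ5, 108 for SLC2A1, 20.5 for LPL and 64.5 for DUSP1. CPB animal 11 had 6.83 for RASAL1 and 21.7 for LTBP2 in heart and 552 for IGFBP5 in kidney. CPB animal 9 had 1.37 for CDH1 in heart and the lowest CPB heart value of MYL9, 586. CPB animal 21 had the lowest CPB heart value of SLC35C1, 2.38, and 202 for OSGIN1 in kidney. The kidney of CPB animal 25 had 2.3 for ANKRD2.

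Among control animals, number 15 had 34.2 for HMOX1 and 2.32 for FOSL1 in heart and 333 for HMOX1 and 214 for ATF4 in kidney. Control animal 13 had in kidney 94.9 for ANGPTL4, 675 for MYL9, 52.8 for MVD and 57.5 for CLDN7. Control animal 14 had in kidney 72 for ESRRB, 48.4 for PDZRN3 and 3250 for IGFBP5, and in heart 13.2 for PDLIM3. Control animal 4 had in heart 2.15 for LRP2, 36.3 for F11R and 29.6 for NR1D1. Control animal 1 had 387 for KCNJ5 in heart and 14.4 for MFAP5 in kidney, and control animal 26 had 2.36 for ANKRD2 in heart and 54.5 for LPL in kidney.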

How the results depend on the processing

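Of the 84 genes called and given with the error of their response difference, which leaves out ADIPOQ and the genes at the edge of the 0.5 limit, 53 kept their call under each alternative that gave them a value (28 to 30 per gene), 31 lost it under at least 1 and 0 changed sign. Without the replicate block 955 genes passed and 852 of them were among the 1210 that passed with it; the count of same-direction genes was then 18. With DESeq2 1732 genes passed, among them 114 opposite and 56 same-direction genes. With no filter on low counts 840 genes passed, with 42 opposite, 279 kidney-restricted and 12 same-direction genes, when 24786 genes were tested. Without control animals 1 and 26, a choice made after seeing the data, 799 genes passed, 744 of them among the 1210, with 36 opposite, 248 kidney-restricted and 13 same-direction genes. Without control animals 14 and 15, chosen likewise, 728 genes passed, 663 of them among the 1210, with 987 heart responses, 29 opposite, 201 heart-restricted, 274 kidney-restricted and 10 same-direction genes, and 18 of the 84 genes lost their call, with adjusted p of 0.0513 to 0.141. Without CPB animals 6 and 9, also chosen after seeing the data, 1204 passed, 940 of them among the 1210. A limit of 0.25 gave 270 kidney-restricted genes, a 2-fold limit on the responding organ gave 116 heart-restricted and 111 kidney-restricted genes, and 1.5-fold in both organs left 30 opposite genes. Leaving out 1 animal gave 750 to 1299 response differences, 1257 to 2432 heart and 2881 to 3930 kidney responses, 44 to 81 opposite, 234 to 490 heart-restricted, 251 to 429 kidney-restricted and 7 to 39 same-direction genes. The share of calls with heart above kidney was 41.8%, and 36.1 to 48.8% over all settings. The cause of these changes was not tested beyond what each setting leaves out. Depth limits genes that are low in 1 organ, such as LRP2, CDH1 and RASAL1 in heart. With kidney counts thinned to heart depth 1155 genes passed.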
